A study of Homo sapiens with 6 samples.

Results

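The phospholipid flippases ATP11A, ATP11B, ATP8A1, ATP8B1, ATP8B2, ATP9A, ATP9B and ATP10D and their subunit TMEM30A were compared between parental LNCaP cells and an enzalutamide-resistant derivative, LNCaP-enzaR. These 9 genes, of 35554 in the deposited table, were found there by symbol. They were chosen from the measured difference between the same 6 libraries, ATP11A above all, so that their own values are a description and carry no test. LNCaP is an established androgen-dependent line from a metastasis of human prostate cancer, and enzalutamide blocks androgen signalling. LNCaP-enzaR was selected by long culture of LNCaP in enzalutamide and then kept on a lower concentration of it, per the study's methods. It is a single derived line, both groups carry the LNCaP background, and whether the drug was present at harvest is not stated. RNA came from 3 flasks of each line, so that the spread between libraries is that between flasks of 1 line.

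Flippases of the P4-ATPase class use ATP to move phospholipids from the outer to the cytosolic leaflet of a membrane, which keeps phosphatidylserine and phosphatidylethanolamine on the inner side. Most of them must bind a CDC50 protein, in most tissues TMEM30A, to leave the endoplasmic reticulum, while ATP9A and ATP9B do not need one. Scramblases work in the opposite sense, letting lipids cross in both directions, and phosphatidylserine that reaches the cell surface marks a dying cell for uptake.

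Library totals ran from 77759122 to 98616465 counts, and 3 counts corresponded to 0.0302 to 0.0382 counts scaled to 1000000 per library (CPM), a limit that covers counting error only. Mitochondrial genes took 6.72% to 7.06% of the counts in the parental libraries and 14.7% to 15.5% in LNCaP-enzaR. LNCaP-enzaR replicate 1 stood apart from the other two, with a chi-square per degree of freedom over gene counts of 35.6 and 28.2 against them, where the other two gave 6.97 and the parental pairs 5.56 to 9.06. Without it, none of the 9 flippase genes changed direction, and their log2 fold changes ran from -0.54 to 3.99. The 10 prostate epithelial markers were all expressed, with summed levels of 5229 to 5362 CPM in the parental and 4496 to 4657 CPM in the LNCaP-enzaR libraries. KLK3 among them, which encodes prostate-specific antigen, went from 1190 to 141 CPM (means). Of 9 markers of other cell types in the table, 5, those of leukocytes, T cells, macrophages, endothelium and fibroblasts (PTPRC, CD3E, CD68, PECAM1 and DCN), were below 1 CPM in every library. The other 4 were above it in every parental library, and ALB alone was below it in LNCaP-enzaR. VWF had mean levels of 5.74 and 4.15 CPM in the parental and LNCaP-enzaR libraries, COL1A1 13.4 and 4.29, ACTA2 1.996 and 8.71, and ALB 7.92 and 0.691. In RNA from whole cultures, a change in the share of cells and a change in RNA per cell cannot be told apart.

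Of the 9 flippase genes, 4 passed the threshold upwards in LNCaP-enzaR (at most 0.05 for the edgeR adjusted p, with a fold of 1.5 or more), 0 were lower and 5 did not pass. Among all 19711 genes tested, 42.7% were past the threshold, 23.3% higher and 19.5% lower. Because the genes were chosen on this contrast, nothing is read from their count. The 4 were ATP11A, ATP10D, ATP8A1 and ATP9A. In all 9 genes the libraries of both lines did not overlap, which also held for 70.6% of the genes tested. Their median log2 fold change was 0.54, with a range from -0.58 to 3.997, and the median over all genes tested was 0.01.

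**Figure D1:**
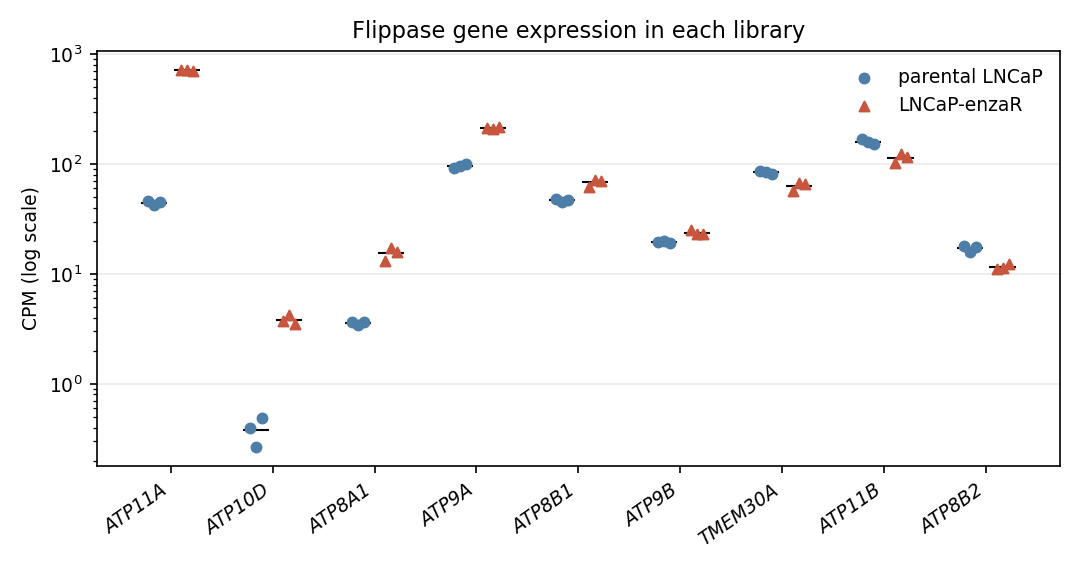
Level of each of the 9 flippase genes in each library, in CPM on a log axis, with parental LNCaP as circles, LNCaP-enzaR as triangles and a bar at each mean (n = 3). ATP11A moves from 42.8 to 45.8 CPM in the parental libraries up to 696 to 723 CPM in LNCaP-enzaR, and ATP11B and TMEM30A lie lower in LNCaP-enzaR than in the parental line.

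For the 4 genes past the threshold, the 250 bases before the start site are shown because each RefSeq start site lies at the gene boundary of the deposited table. They are from RefSeq promoter windows (GRCh38.p14), which were held for 6 of the 9 genes, and are printed 5′ to 3′ on the strand of the gene. Capitals mark the letters GGGCGG (a GC box, read by SP1-type factors) or CCAAT on either strand, where CCGCCC and ATTGG are the reverse complements, and 2 GC boxes that share a base run together.
ATP11A, chr13:112689788-112690037, plus strand: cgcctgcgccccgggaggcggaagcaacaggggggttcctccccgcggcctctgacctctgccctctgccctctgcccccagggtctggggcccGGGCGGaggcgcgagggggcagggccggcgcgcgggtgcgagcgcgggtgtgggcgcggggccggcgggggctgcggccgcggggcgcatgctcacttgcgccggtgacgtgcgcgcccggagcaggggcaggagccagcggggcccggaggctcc
ATP10D, chr4:47485025-47485274, plus strand: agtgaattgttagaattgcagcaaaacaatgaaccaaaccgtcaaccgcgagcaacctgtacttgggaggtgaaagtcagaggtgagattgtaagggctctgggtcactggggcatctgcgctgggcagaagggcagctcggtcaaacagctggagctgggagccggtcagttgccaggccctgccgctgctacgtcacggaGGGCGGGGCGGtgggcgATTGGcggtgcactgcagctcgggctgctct
ATP8A1, chr4:42657106-42657355, minus strand: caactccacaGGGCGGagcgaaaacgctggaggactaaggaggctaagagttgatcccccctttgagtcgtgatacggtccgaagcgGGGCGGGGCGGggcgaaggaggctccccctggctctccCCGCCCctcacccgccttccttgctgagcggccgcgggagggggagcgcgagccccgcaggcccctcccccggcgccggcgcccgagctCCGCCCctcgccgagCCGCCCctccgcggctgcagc
ATP9A, chr20:51768391-51768640, minus strand: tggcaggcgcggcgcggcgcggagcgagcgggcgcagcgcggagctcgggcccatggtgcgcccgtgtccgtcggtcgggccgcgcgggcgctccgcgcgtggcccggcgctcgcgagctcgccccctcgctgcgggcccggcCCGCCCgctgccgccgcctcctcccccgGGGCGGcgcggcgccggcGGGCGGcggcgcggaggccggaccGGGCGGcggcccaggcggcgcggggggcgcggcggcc
The ATP11A window was 81.6% G and C with 33 CpG dinucleotides and held 1 GC box. The ATP10D window was the least GC-rich of the 4, at 60.0% with 14 CpG, and held 2 overlapping GC boxes next to 1 CCAAT box. The ATP8A1 window held 6 GC boxes, with 74.4% G and C and 29 CpG. The ATP9A window reached 89.2% G and C with 57 CpG and held 4 GC boxes. Over all 35116 RefSeq windows of this length the median was 58.0% G and C with 11 CpG, 42.6% held a GC box and 32.0% a CCAAT box. Windows at least as GC-rich made up 1.99% of all for ATP11A and 0.0342% for ATP9A, and 2.22% had at least 6 GC boxes. The letters TATAAA (the TATA box), then CACGTG (an E-box) and AGAACA (an androgen response half-site), searched on both strands, were in none of the 4 windows, against 10.7%, 6.35% and 12.4% of all windows. The windows held for ATP9B and ATP8B2, which did not pass, lacked them too, so their absence does not set the 4 apart. The ATP9B window had 71.6% G and C with 3 GC boxes, and the ATP8B2 windows 56.4% with 0 and 78.0% with 3. These are matches of letters within 250 bases, from which nothing follows about binding.

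ATP11A (ENSG00000068650.19, chromosome 13, 112690038 to 112887168, plus strand, GRCh38) encodes a flippase of the plasma membrane that moves phosphatidylserine and phosphatidylethanolamine inwards and is cut by caspases in apoptosis. It stood at 45.8, 42.8 and 45.0 CPM in the 3 parental libraries and at 723, 713 and 696 CPM in the 3 LNCaP-enzaR libraries. All 3 LNCaP-enzaR libraries were far above all 3 parental ones, and within each line the libraries lay close together. The means were 44.5 ± 1.53 and 711 ± 13.9 CPM (SD, n = 3), a 15.97-fold difference, and the log2 fold change was 3.997 with a standard error (SE) of 0.058. These values rest on 3535 to 4235 counts in the parental and 62430 to 69063 counts in the LNCaP-enzaR libraries. Under 14 other settings of test, scaling, filter and libraries its log2 fold change lay between 3.96 and 4.10, and it was 4.001 with the mitochondrial genes left out. Its 33 merged exons span 14024 bases of sequence in GENCODE v44, and scaled by that length ATP11A went from rank 7620 to rank 690 among 14062 protein-coding genes tested. Among the 1849 higher genes with a mean of at least 5 CPM, its log2 fold change ranked 53.

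The 2 genes read inside ATP11A or just upstream of it had few counts. ATP11A-AS1, annotated inside the gene on the other strand, had at most 9 counts and ATP11AUN, just upstream, at most 2 counts in any library. No annotated exon of another gene overlapped those of ATP11A.

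ATP10D (ENSG00000145246.14, chromosome 4, 47485275 to 47593486), which flips glucosylceramide, was the least abundant of the 9 per kilobase of exon. Its levels were 0.400, 0.264 and 0.484 CPM in the parental and 3.77, 4.20 and 3.52 CPM in the LNCaP-enzaR libraries. Every LNCaP-enzaR library was above every parental one, at low levels throughout. The means were 0.382 ± 0.111 and 3.83 ± 0.346 CPM, 10.01-fold apart, from 24 to 38 counts in the parental and 325 to 371 counts in the LNCaP-enzaR libraries. The log2 fold change was 3.33 (SE 0.208) and lay between 3.11 and 3.52 when single libraries were left out, the widest span among the 9 genes. Another gene shared 3.11% of its exonic sequence.

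ATP8A1 (ENSG00000124406.16, chromosome 4, 42408373 to 42657105), a flippase of phosphatidylserine on recycling endosomes and the Golgi, read 3.67, 3.45 and 3.62 CPM in the parental libraries. In LNCaP-enzaR it read 13.1, 17.1 and 15.9 CPM, with the first library the lowest and all 3 above the parental line. The means were 3.58 ± 0.115 and 15.4 ± 2.04 CPM (4.29-fold), with a log2 fold change of 2.10 (SE 0.109). 

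ATP9A (ENSG00000054793.14, chromosome 20, 51596514 to 51768390), which acts in endosomal recycling and extracellular vesicle release and needs no CDC50 subunit, was already among the more abundant of these genes per kilobase in parental cells. It read 91.8, 95.6 and 99.3 CPM there, against 211, 210 and 216 CPM in LNCaP-enzaR. The LNCaP-enzaR libraries were tightly grouped and all higher. The means were 95.6 ± 3.71 and 212 ± 3.19 CPM (2.22-fold), with a log2 fold change of 1.15 (SE 0.054).

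Its close relative ATP9B (ENSG00000166377.20, chromosome 18, 79069285 to 79378287), a protein of the trans-Golgi network, differed far less. The levels were 19.45, 19.997 and 18.96 CPM in the parental and 24.97, 23.08 and 23.21 CPM in the LNCaP-enzaR libraries. The libraries of both lines did not overlap, but the 1.22-fold difference was under the fold limit (log2 fold change 0.29, SE 0.069). Exons of other genes covered 4.87% of its exonic sequence.

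ATP8B1 (ENSG00000081923.15, chromosome 18, 57646426 to 57803315), which moves phosphatidylcholine and is mutated in a familial liver cholestasis, sat at the limit. It read 47.9, 45.0 and 47.1 CPM in the parental and 62.4, 71.3 and 70.2 CPM in the LNCaP-enzaR libraries, the first of the latter being the lowest. The means were 46.67 ± 1.53 and 67.98 ± 4.89 CPM, 1.46-fold apart, with a log2 fold change of 0.54 (SE 0.066). It passed the fold limit with upper-quartile scaling, at 0.64, and without LNCaP-enzaR replicate 1, at 0.61. Other genes covered 9.23% of its exonic sequence, among them its antisense gene ATP8B1-AS1, and whether counting used strand is not stated.

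**Figure D2:**
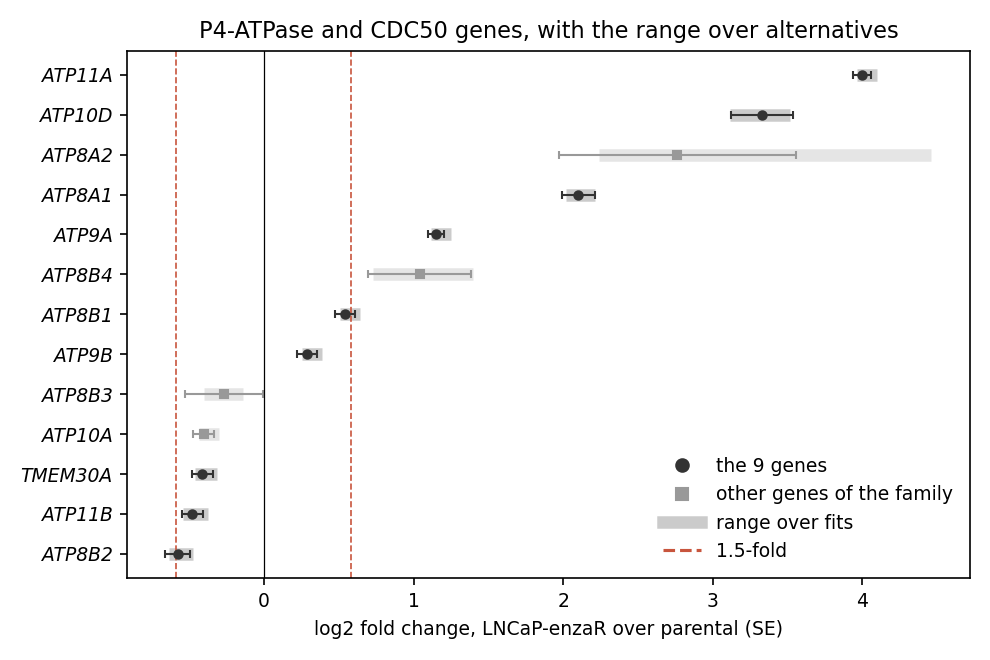
Log2 fold change of LNCaP-enzaR over parental (horizontal axis) for the 9 genes (circles) and 4 other tested genes of the family (squares), with bars of 1 SE, grey bands for the range over the 14 other settings and dashed lines at the 1.5-fold limits. ATP11A (3.997) and ATP10D (3.33) stand at the top, ATP8B1 (0.54) and ATP8B2 (-0.58) lie at the limits, and the band of ATP8A2 is the widest.

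3 genes had lower values in LNCaP-enzaR without passing the threshold. ATP11B (ENSG00000058063.16, chromosome 3, 182793503 to 182921629), an endosomal relative of ATP11A, read 167, 158 and 151 CPM in the parental and 103, 124 and 116 CPM in the LNCaP-enzaR libraries. All parental libraries were above all LNCaP-enzaR libraries. The means were 159 ± 8.21 and 114 ± 10.8 CPM, 1.39-fold apart, and the log2 fold change was -0.48 (SE 0.070).

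TMEM30A (ENSG00000112697.17, chromosome 6, 75252924 to 75284948), the CDC50 subunit, read 86.9, 85.1 and 81.2 CPM in the parental and 56.3, 67.8 and 66.3 CPM in the LNCaP-enzaR libraries. The parental libraries were again all higher, and LNCaP-enzaR replicate 1 was the lowest of the 6. The means were 84.4 ± 2.91 and 63.5 ± 6.26 CPM (1.33-fold apart), with a log2 fold change of -0.41 (SE 0.072). TMEM30A-DT, a noncoding gene that starts next to it on the other strand, had 53 to 156 counts per library.

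ATP8B2 (ENSG00000143515.19, chromosome 1, 154325525 to 154351304), a phosphatidylcholine flippase of the plasma membrane, read 18.14, 15.98 and 17.47 CPM in the parental and 10.998, 11.35 and 12.21 CPM in the LNCaP-enzaR libraries. The lines did not overlap, and the 1.49-fold difference between 17.2 ± 1.10 and 11.5 ± 0.627 CPM fell just short of the fold limit (log2 fold change -0.58, SE 0.081). It passed with library totals in place of TMM scaling, at -0.61, without parental replicate 2, at -0.63, and without LNCaP-enzaR replicate 3, at -0.62.

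Levels of different genes were compared per kilobase of exon. In parental cells the order was ATP11B (17.3 ± 0.893 CPM per kb), TMEM30A (15.3 ± 0.528), ATP9A (11.8 ± 0.460), ATP8B1 (6.64 ± 0.218), ATP11A (3.17 ± 0.109), ATP8B2 (2.26 ± 0.145), ATP9B (1.304 ± 0.0349), ATP8A1 (0.319 ± 0.0102) and ATP10D (0.0479 ± 0.0139). In LNCaP-enzaR, ATP11A came first at 50.7 ± 0.990 CPM per kb, followed by ATP9A at 26.3 ± 0.395. ATP11B (12.4 ± 1.17), TMEM30A (11.5 ± 1.14) and ATP8B1 (9.67 ± 0.696) came next, and the first 2 of these lay within their spread of each other. Lower in the order, ATP9B (1.59 ± 0.0709), ATP8B2 (1.52 ± 0.0825) and ATP8A1 (1.37 ± 0.182) could not be set apart by their spread, and ATP10D was last at 0.480 ± 0.0434 CPM per kb. Exon length was that of all annotated exons merged, which understates a gene that uses only some of them.

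Summed over the 13 P4-ATPase genes reported here, which are not the whole class, the level per kilobase was 44.02 ± 0.732 in the parental line and 105 ± 1.52 in LNCaP-enzaR. ATP11A alone made up 7.21% ± 0.161 of that sum in parental cells and 48.3% ± 1.38 in LNCaP-enzaR. The sum without ATP11A was 40.84 ± 0.643 and 54.3 ± 2.10 CPM per kb. The share of ATP11B went from 39.3% ± 1.57 to 11.8% ± 0.949, and that of ATP9A was 26.9% ± 1.39 and 25.1% ± 0.582. These shares are made of the same values that chose the genes and were not tested.

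The 11 of them that need a CDC50 subunit summed to 30.9 ± 1.11 CPM per kb in the parental and 77.1 ± 1.72 in the LNCaP-enzaR libraries, while TMEM30A was the only CDC50 gene above a few counts. Their ratio to TMEM30A was 2.04, 1.96 and 2.05 in the parental and 7.39, 6.40 and 6.36 in the LNCaP-enzaR libraries. The ratio was higher in every LNCaP-enzaR library, the most in replicate 1, where TMEM30A was lowest. It measures transcripts, not subunits of protein.

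**Figure D3:**
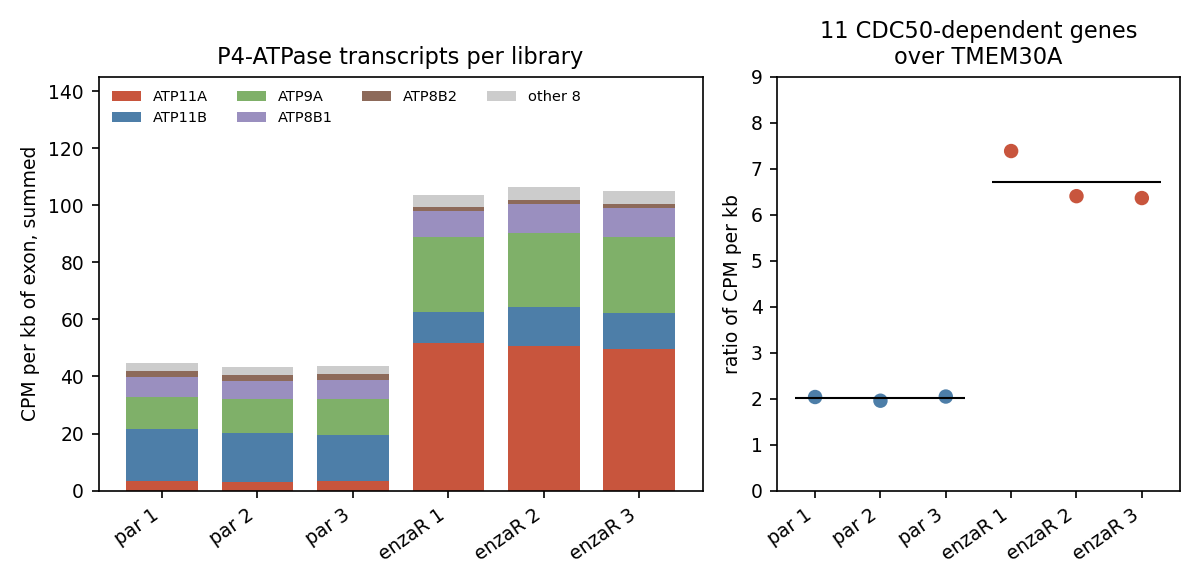
Left, CPM per kb of exon summed over the 13 P4-ATPases in each library (par, parental; enzaR, LNCaP-enzaR), stacked by gene, with the 8 others together. Right, the ratio of the 11 CDC50-dependent genes to TMEM30A in each library, with a line at each mean. ATP11A takes 7.21% of the parental and 48.3% of the LNCaP-enzaR sum, and the mean ratio goes from 2.01 to 6.72.

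Another 7 genes of the family in the table were listed by their roles. Of the 4 tested, 2 were higher past the threshold, 0 lower and 2 not past it, with a median log2 fold change of 0.39. ATP10A, a phosphatidylcholine flippase related to ATP10D, had 20.4 ± 0.543 and 15.4 ± 0.432 CPM, which on the log2 scale is -0.40 (SE 0.070, edgeR adjusted p = 0.000144) and was under the fold limit. ATP8A2, the neuronal relative of ATP8A1, had 0 to 9 counts per parental and 17 to 41 counts per LNCaP-enzaR library and was higher past the threshold. On the log2 scale the difference was 2.76 (SE 0.794, edgeR adjusted p = 0.00633), and 4.46 without parental replicate 1. ATP8A2 met the count filter through the LNCaP-enzaR libraries only, so that its call and its p carry no weight. ATP8B4 was at 0.403 ± 0.185 and 0.822 ± 0.140 CPM, with a log2 difference of 1.04 (SE 0.343, edgeR adjusted p = 0.0152). Without parental replicate 1 that value was 0.73 with an edgeR adjusted p of 0.0602, and the call was lost. ATP8B3 had 0.711 ± 0.0243 and 0.591 ± 0.108 CPM (log2 fold change -0.27, edgeR adjusted p = 0.391). ATP10B, with 0 to 1 counts in the parental and 4 to 8 in the LNCaP-enzaR libraries, and the CDC50 genes TMEM30B and TMEM30CP, with at most 2 and 5 counts, were too low to be tested.

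Scramblases and the proteins that act with them were described beside the flippases as lists by role. For every list, the share to set beside its counts was that of all genes tested, 23.3% higher and 19.5% lower. Of 13 genes tested in the scramblase list, which also holds the lipid bridge VPS13A, 3 were higher, 5 lower and 5 not past the threshold. Their median log2 fold change was -0.31. The 3 higher genes were all under 1 CPM in every library. Only 1 gene of the list was higher without parental replicate 1 or without LNCaP-enzaR replicate 1. VPS13A, a bridge for lipids between membranes, went from 90.1 ± 5.80 to 39.5 ± 5.27 CPM (log2 fold change -1.19, edgeR adjusted p = 2.31e-08), and TMEM41B, a scramblase of the endoplasmic reticulum, from 45.5 ± 2.39 to 21.2 ± 1.55 CPM (-1.10, edgeR adjusted p = 7.68e-09). XKR8, the caspase-activated scramblase of the plasma membrane, fell by 0.60 on the log2 scale from 7.86 ± 0.317 to 5.18 ± 0.702 CPM (edgeR adjusted p = 0.000232), and dropped under the fold limit without LNCaP-enzaR replicate 2 (-0.53), without LNCaP-enzaR replicate 3 (-0.57), with a minimum of 10 counts a library (-0.58) and with upper-quartile scaling (-0.50). VMP1, the most abundant of the list per kilobase and a relative of TMEM41B in role, had 121 ± 2.85 and 115 ± 5.54 CPM (-0.08, edgeR adjusted p = 0.256). A partner of XKR8, basigin (BSG), rose from 621 ± 19.2 to 1009 ± 63.3 CPM (log2 fold change 0.70, edgeR adjusted p = 6.54e-08). BSG was 1 of 3 partners tested (median 0.02), and the other two did not pass. With library totals, and without LNCaP-enzaR replicate 1, 2 of the 3 passed, 1 of them lower.

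Of 7 ABC transporters that move lipids, 5 were higher, 1 lower and 1 not past the threshold, with a median log2 fold change of 1.39. At least 1 of the 5 was under 1 CPM in every library, with 0 to 5 counts in the parental ones. ABCG1, which exports cholesterol and phospholipid, went from 5.27 ± 0.722 to 40.9 ± 2.73 CPM (log2 fold change 2.96, edgeR adjusted p = 4.68e-12) and ABCA7 from 19.5 ± 0.689 to 51.3 ± 8.15 CPM (1.39, edgeR adjusted p = 1.05e-08). ABCA3 went from 75.04 ± 0.502 to 153 ± 13.6 CPM (1.03, edgeR adjusted p = 4.33e-09), while ABCC1, the most abundant per kilobase in the parental line, had 174 ± 1.59 and 151 ± 11.7 CPM (-0.21, edgeR adjusted p = 0.00702), under the fold limit. Of 11 genes that make phosphatidylserine and phosphatidylethanolamine or share those steps, 2 were higher, 1 lower and 8 not past it (median -0.04), and leaving out any library but parental replicate 3 left 1 higher. At least 1 of the 2 was under 1 CPM in every library, with 4 to 17 counts in the parental ones. Another gene shared 72.5% of the exonic sequence of that gene. CHKA, a choline and ethanolamine kinase, fell from 27.5 ± 1.53 to 10.8 ± 0.241 CPM (-1.35, edgeR adjusted p = 8.15e-10), with 16.3% of its exonic sequence shared with another gene. PTDSS1, a phosphatidylserine synthase, had 165 ± 0.760 and 112 ± 2.26 CPM, a log2 fold change of -0.55 (edgeR adjusted p = 2.51e-07) that was under the fold limit and past it with library totals, at -0.59. Of 8 genes whose products bind exposed phosphatidylserine or the proteins that bridge to it, 5 were higher, 0 lower and 3 not past it (median 0.69). The log2 fold changes of the 8 ran from -0.44, under the fold limit, to 3.76, which rested on 9 to 21 counts per parental library. Among them the bridging proteins GAS6, PROS1 and MFGE8 had log2 fold changes of 1.03, 0.80 and 0.73 (edgeR adjusted p = 2.74e-08, 3.40e-06 and 4.23e-05). Annexin A5 (ANXA5), which covers phosphatidylserine on membranes, rose from 146 ± 0.604 to 228 ± 7.28 CPM (0.65, edgeR adjusted p = 5.25e-08).

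ATP9A acts on endosomes with a set of partners, of which 2 of 7 tested were higher, 0 lower and 5 not past the threshold (median 0.17). DOP1B rose from 31.8 ± 1.15 to 75.01 ± 1.24 CPM (log2 fold change 1.24, edgeR adjusted p = 2.08e-10) and the Golgi GTPase ARL1 had a log2 fold change of 0.95 (edgeR adjusted p = 3.48e-09). SNX3, a sorting nexin of the same route, had 0.44 (edgeR adjusted p = 1.58e-05), under the fold limit. Of 15 P-type ATPases outside the P4 class, ion pumps and other transporters related to flippases by their mechanism, 4 were higher, 5 lower and 6 not past it (median 0.20). The calcium pump ATP2A2 of the endoplasmic reticulum fell from 544 ± 17.8 to 324 ± 1.36 CPM (-0.75, edgeR adjusted p = 8.06e-09) and the Golgi calcium and manganese pump ATP2C2 from 19.1 ± 0.116 to 7.66 ± 0.498 CPM (-1.32, edgeR adjusted p = 2.47e-09), with 26.2% of its exonic sequence shared with another gene. The plasma membrane calcium pump ATP2B1 rose from 75.6 ± 1.15 to 125 ± 7.08 CPM (0.73, edgeR adjusted p = 5.61e-08).

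**Figure D4:**
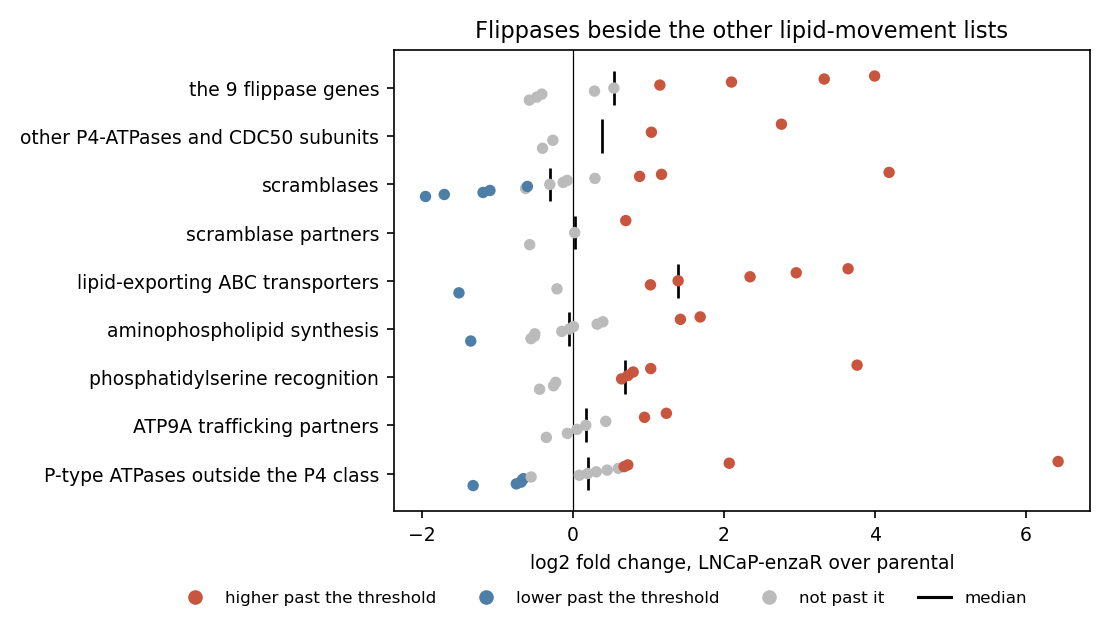
Log2 fold change of LNCaP-enzaR over parental (horizontal axis) of each tested gene in the 9 flippase genes and in each list, 1 point a gene, coloured by whether it passed the threshold, with a black bar at the list's median. The medians run from -0.31 for the scramblase list to 1.39 for the list labelled lipid-exporting ABC transporters. The flippase genes, at 0.54, were chosen on this contrast.

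The nearest tested protein-coding gene on each side of each of the 9 genes was read for comparison with its neighbourhood. Of these 18 genes, 4 were higher, 4 lower and 10 not past the threshold. Over all genes tested, 23.3% were higher and 19.5% lower, so the count does not set the neighbours apart. Beside ATP11A the genes moved in opposite directions: TUBGCP3, a component of the microtubule-nucleating ring complex, fell from 63.0 ± 1.05 to 39.8 ± 1.32 CPM (log2 fold change -0.66, edgeR adjusted p = 1.61e-07), and the exchange factor gene MCF2L rose from 24.6 ± 1.14 to 49.6 ± 1.29 CPM (1.01, edgeR adjusted p = 4.17e-09). TUBGCP3 was under the fold limit with upper-quartile scaling (-0.56). Beside ATP9A, both NFATC2 (3.18, edgeR adjusted p = 0.000402) and SALL4 (2.89, edgeR adjusted p = 2.48e-08) were higher, at under 3 CPM in both lines. The value of NFATC2 was 2.57 without parental replicate 1 and 4.097 without parental replicate 2. Its means were 0.0694 ± 0.0662 CPM in the parental and 0.636 ± 0.180 CPM in the LNCaP-enzaR libraries. NFATC2 met the count filter through the latter, so that its call and its p carry no weight. On the 2 sides of ATP9B, MBP was lower (-2.50, edgeR adjusted p = 1.77e-12) and NFATC1 higher (1.52, edgeR adjusted p = 5.23e-09). SHISA3 beside ATP8A1 (-1.36, edgeR adjusted p = 0.00891) and SENP6 beside TMEM30A (-0.80, edgeR adjusted p = 8.88e-08) were lower. SHISA3 had means of only 0.436 and 0.170 CPM, and its value ran from -1.68 to -1.15 over the other settings. Neither neighbour of ATP10D, ATP11B, ATP8B1 or ATP8B2 passed the threshold.

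Over the 6 libraries, the genes with the pattern most like that of ATP11A were MSX2, PHLDB2 and GNG13, among 10768 genes with a mean of at least 5 CPM. Likeness was the root mean square difference of log2(CPM + 0.03) centred on each gene's mean, which was 0.0366 for MSX2, 0.0828 for PHLDB2 and 0.101 for GNG13. MSX2, a homeobox transcription factor, went from 2.97 ± 0.123 to 48.0 ± 2.16 CPM, PHLDB2 from 0.640 ± 0.0543 to 10.7 ± 0.417 CPM and GNG13 from 1.06 ± 0.106 to 15.5 ± 0.753 CPM. The 3 genes are on chromosomes 5, 3 and 16, none of them that of ATP11A. With 2 groups of 3 libraries, the measure mainly finds genes of a like fold change.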

How the data were processed

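RNA-seq was done by the authors on polyadenylated RNA of 3 flasks each of parental LNCaP and LNCaP-enzaR cells, with paired-end reads. Per the study's methods, adapters were trimmed with Cutadapt, reads were aligned to GRCh38 with STAR and the GENCODE annotation, and reads per gene were counted with featureCounts. The deposited values are raw counts per gene, not normalized. Strand use and the handling of multiply mapped reads are not given in the sources used here, so values of overlapping and antisense genes are uncertain.

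Counts were analysed in R 4.3.3 with edgeR 4.0.16 (filterByExpr, TMM scaling, robust quasi-likelihood F-test, no covariates) over 19711 genes holding 99.96% of the counts, with Benjamini-Hochberg adjustment over all of them. The limits were those of the study's methods, 0.05 for the adjusted p and 1.5 for the fold. CPM are TMM-scaled, SD is over 3 libraries, and fold changes are LNCaP-enzaR over parental. Exon lengths and overlaps are from GENCODE v44, in which 99.8% of the genes were found. DESeq2 (the tool of those methods, run here in version 1.42.0), other scalings and filters, a replicate block and single libraries left out were alternatives.

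The flippase genes and all lists were chosen with earlier results of these data known. Named were all family genes, in each list the 3 genes past the threshold with the largest change at a mean of at least 5 CPM and the gene with the highest level per kilobase, the neighbours of each flippase gene and the 3 genes most like ATP11A. Neighbours that did not pass are given by count. Some genes of the family and of the lists are not reported here and were left out of the counts and sums.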

Additional observations from a re-analysis of the deposited data

How the results depend on the processing

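Fits were repeated with DESeq2, RLE size factors, library totals, upper-quartile scaling, no count filter, at least 10 counts in every library, a replicate block, each library left out, and the mitochondrial genes left out, the last chosen after seeing the data. Genes past the threshold numbered 8425, from 6740 (at least 10 counts) to 9179 (no filter), and 8212 with the replicate block. Same-numbered libraries were not treated as pairs in the main fit. The correlations of their deviations were -0.21, 0.0085 and -0.12, which cannot show whether these libraries were prepared together. The block moved 1 call each in the scramblase list (8 to 7) and the P-type ATPases outside the P4 class (9 to 8). It changed no call of the other lists or of a gene named. Flippase genes past it numbered 4 or 5, and none of the 9 changed direction. Upper-quartile scaling moved the median of all genes by 0.10 and turned VMP1, a scramblase at -0.08, to 0.026. With at least 10 counts, 1 gene of the other P4-ATPases and CDC50 genes passed in place of 2. In the scramblase list 5 passed in place of 8, and fewer genes were tested in both lists. With library totals, 2 scramblase partners passed in place of 1. Leaving out single libraries gave 1 to 2 of the other P4-ATPases and CDC50 genes, 1 to 2 of the partners and 6 to 8 of the scramblase list. Low counts limit ATP10D, ATP8A2, ATP8B4, SHISA3 and NFATC2. Of these, ATP8A2 and NFATC2 were not tested with at least 10 counts in every library.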
